A study of Mus musculus with 7 samples.

Results

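The antiviral genes that type I interferon switches on were followed in mouse gliomas under 5 treatment conditions. The list was drawn up by gene name and role, with earlier results of these data known: 38 genes in 7 roles, of which 36 matched a symbol among the 32285 genes counted. Mx1 and Mx2 matched no symbol and were not analysed here. The 36 genes are 7 RNA and nucleic acid sensors (Ddx58, Ifih1, Dhx58, Ddx60, Zbp1, Ifi204 and Ifi209), 5 of the OAS family (Oas1a, Oas2, Oas3, Oasl1 and Oasl2), 4 of the IFIT family (Ifit1, Ifit2, Ifit3 and Ifit3b), 3 of the ISG15 system (Isg15, Usp18 and Herc6), Parp9 with Dtx3l and Parp14, 9 restriction factors and effectors (Rsad2, Cmpk2, Bst2, Samd9l, Slfn5, Trim30a, Rnf213, Eif2ak2 and Rtp4) and 5 transcription factor and other responders (Irf7, Ifi27l2a, Ifi35, Ifi44 and Xaf1).

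Type I interferons are secreted when cells sense foreign or misplaced nucleic acid, and they bind a receptor made of IFNAR1 and IFNAR2 that nearly all cells carry. JAK1 and TYK2 then phosphorylate STAT proteins, which join IRF9 to form ISGF3, a complex that binds the interferon-stimulated response element (ISRE) in the promoters of the antiviral genes. Interferon gamma acts through another receptor, and its targets overlap with these genes. In tumours, both kinds of interferon are known for their effects on antigen presentation and on the recruitment of T cells.

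The tumours were grown in C57BL/6 mice of 7 to 10 weeks from NSCG-mCherry, a glioma line with EGFRvIII (a truncated EGF receptor) and a stated Arf/Ink4a-/- genotype, so that all groups share these alleles. Whole tumours were collected at about day 14 and profiled by 10x 3′ single-cell RNA sequencing, in which each transcript molecule gives at most 1 unique molecular identifier (UMI) count near its 3′ end. UT mice were untreated (1 library). IgG mice had the isotype antibody IgG2b at 10 mg/kg (2 libraries), and BP mice had 5 mg/kg of the anti-VEGF antibody B20 with 10 mg/kg of anti-PD-L1 (2 libraries), each in 3 rounds. BPI mice had the BP antibodies and, by daily oral gavage at 10 mg/kg, IPI-145, which blocks the delta and gamma forms of PI3K (1 library). CD40 mice had 2 doses of 100 µg of a CD40 agonist antibody (1 library), and the labels do not settle whether they also had a dendritic cell vaccine. The line is 1 tumour model, and each library pooled at least 2 mice, so p-values measure only the spread between pooled libraries.

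Depth was 68997476 to 186793886 UMIs per library, and 48588 cells were kept, with 0 to 27 cell barcodes shared by any pair of libraries. By their library names, IgG replicate 1, BP replicate 2 and BPI form a run of consecutive numbers, CD40 and IgG replicate 2 form another, and BP replicate 1 and UT each have a number of their own. The barcodes of UT come from a different list from those of the other 6 libraries, so UT and this difference cannot be told apart. Cells were clustered without the 36 genes and other interferon-responsive genes chosen by symbol, a list that need not be complete. Apol9a and Apol9b, among the leading genes of clusters 1, 2 and 3, were not on it. Classes were named from markers. Tumour-like cells are 4012 to 5924 per library. In IgG replicate 1, BP replicate 2 and BPI they are mostly clusters 21 and 22, which rest on 4 of 12 tumour markers (Sox2, Nes, Egfr and Cdkn2a) and are led by Wfdc2, Pde6a and Gdf15. Those of IgG replicate 2 and CD40 are mostly clusters 14, 17, 18 and 24, those of BP replicate 1 mostly cluster 6 (81.3%) and those of UT mostly clusters 1, 2 and 3, so comparisons over the whole class set different clusters side by side. Clusters 21 and 22 have the fewest tumour markers raised, beside 6 to 11 of 12 in the other tumour-like clusters. Of their 4, Cdkn2a is the gene of the Arf/Ink4a locus that the stated genotype lacks, and why it is counted was not tested. The microglia-like class is 1 cluster with more macrophage markers (C1q genes) than microglia markers among its 10 leading genes, and it is compared by its number, cluster 15. In a class, fewer responding cells and less RNA per cell are told apart only in the cell-by-cell values given later.

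Promoter sequence was examined first, because the ISRE is the known address of ISGF3. RefSeq promoter entries (GRCm38.p6) were found for 27 of the 36 genes, in 29 windows of 250 bases before the start, and 9 had none (Dhx58, Zbp1, Ifi204, Oas2, Usp18, Parp9, Parp14, Rtp4 and Ifi27l2a). The letters GAAANNGAAA, searched on both strands with overlaps allowed, were present in 11 of the 29 windows (37.9%), against 2.98% of the 32851 promoter windows in the table. TTCNNNGAA, the letters of the gamma-activated site, was in 4 of the 29, against 7.02% of all windows. The stretches below are shown because they hold the motif in 7 genes whose values are described later, and Ifit3 and Ifit3b show a shared copy. Each has 70 bases, printed 5′ to 3′ in the gene's direction, with matches to GAAANNGAAA or its reverse complement TTTCNNTTTC in capitals. They lie at chr4:156200851-156200920 (Isg15, minus strand), chr19:34640764-34640833 (Ifit1, plus), chr19:34583360-34583429 (Ifit3, plus), chr19:34607756-34607825 (Ifit3b, plus), chr12:26456533-26456602 (Rsad2, minus), chr5:120777695-120777764 (Oas3, minus) and chr8:71537560-71537629 (Bst2, minus).
Isg15: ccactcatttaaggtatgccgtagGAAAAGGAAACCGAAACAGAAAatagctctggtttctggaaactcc
Ifit1: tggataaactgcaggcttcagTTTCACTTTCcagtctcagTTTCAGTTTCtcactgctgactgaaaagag
Ifit3: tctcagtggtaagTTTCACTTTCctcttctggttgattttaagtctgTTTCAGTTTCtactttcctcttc
Ifit3b: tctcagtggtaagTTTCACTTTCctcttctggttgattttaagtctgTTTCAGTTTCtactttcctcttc
Rsad2: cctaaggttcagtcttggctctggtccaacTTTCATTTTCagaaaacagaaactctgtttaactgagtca
Oas3: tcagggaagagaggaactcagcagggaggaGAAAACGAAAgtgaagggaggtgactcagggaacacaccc
Bst2: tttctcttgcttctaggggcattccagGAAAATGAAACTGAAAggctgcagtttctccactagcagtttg

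Isg15 holds 3 overlapping matches in a row, Bst2 holds 2 that overlap, and Ifit1 and Ifit3 hold 2 that are apart. The Ifit3 and Ifit3b stretches are identical over 70 of 70 bases. Over the whole windows the pair match at 188 of 218 bases when shifted by 32 bases (86.2%). A match is a description of letters, and windows without one say nothing about binding elsewhere.

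Many of the genes are neighbours (GRCm38, GENCODE). Ifit2, Ifit3, Ifit3b and Ifit1 lie within 99.3 kb at chr19:34550694-34650009. Oas2, Oas3 and Oas1a lie within 177 kb at chr5:120730333-120907521, and Oasl2 and Oasl1 within 41.0 kb at chr5:114896936-114937915. Parp14, Dtx3l and Parp9 are at chr16:35832874-35972605, Rsad2 and Cmpk2 at chr12:26442746-26479837, and Ifi209 and Ifi204 at chr1:173630917-173766943. Copies limit some counts: among the 50-base words of the last 500 transcript bases, 56.1% for Oas1a are shared with another gene (Oas1g), 47.8% for Ifi209 (Ifi214), 24.5% for Herc6 (Gm45193), 19.9% for Trim30a (Trim30d) and 14.9% for Ifit3 (Ifit3b). The counts of these 5 genes are uncertain for that reason. Isg15 (ENSMUSG00000035692) spans chr4:156199424-156200818, Irf7 (ENSMUSG00000025498) chr7:141262706-141266481, Bst2 (ENSMUSG00000046718) chr8:71534255-71537456, Usp18 (ENSMUSG00000030107) chr6:121245906-121270917 and Ifi27l2a (ENSMUSG00000079017) chr12:103442167-103443680.

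The 36 genes together gave a summed score, their UMIs per 10000 UMIs of a class in a library. Where values of IgG or BP are given as a pair, replicate 1 comes before replicate 2. In tumour-like cells the score was 131 in UT, 14.4 and 10.3 in IgG, 60.2 and 16.3 in BP, 33.6 in BPI and 7.83 in CD40. UT and BP replicate 1 stood far above the rest, BPI came next, and CD40 was lowest. In macrophage-like cells it was 211 in UT, 70.6 and 24.7 in IgG, 60.02 and 85.4 in BP, 102 in BPI and 14.8 in CD40. Here IgG replicate 1 lay between the BP libraries, so that IgG and BP overlapped. The CD40 library had the lowest score in all 7 classes described, and UT had the highest in 6, all but the monocyte-like class, where IgG replicate 1 was highest (260). The highest library exceeded the lowest 16.8-fold in tumour-like cells, 14.2-fold in macrophage-like, 10.5-fold in monocyte-like, 10.4-fold in cluster 15, 9.37-fold in endothelial-like, 7.27-fold in NK-like and 4.48-fold in T-like cells.

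**Figure D1:**
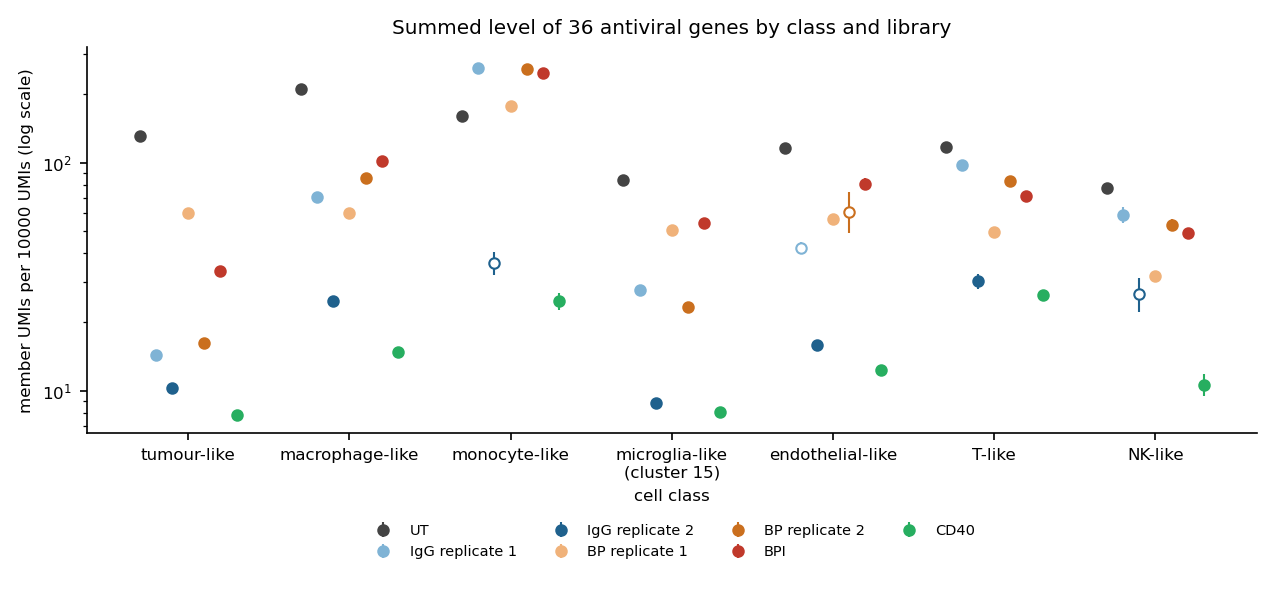
Summed score of the 36 genes (UMIs per 10000 UMIs, log axis) in 7 cell classes; each point is 1 pooled library, coloured by library, with an exact 95% interval for counting error, and open points have under 20 cells. UT is the highest point in 6 classes, CD40 the lowest in 7, and the 2 IgG libraries lie apart in each class.

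A few genes made up much of the score. Bst2, which encodes tetherin, a membrane protein that holds budding viruses at the cell surface, gave on average 24.3% of the score in tumour-like cells and Isg15, a ubiquitin-like modifier, 10.1%. Ifi27l2a, a small mitochondrial protein of the Ifi27 family, gave 26.5% in macrophage-like, 25.7% in monocyte-like and 36.7% in T-like cells. NK-like cells were led by Isg15 (8.57%). A difference between classes in the score is therefore partly a difference in Ifi27l2a and Bst2.

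Against tumour-like cells of the same library, the macrophage-like score was higher in 6 of 7 libraries, with a median ratio of 2.39 and a range of 0.998 (BP replicate 1) to 5.24. Of the 36 genes, 13 were higher in macrophage-like than in tumour-like cells in all 7 libraries, against 12.0% of the 17923 genes with at least 3 UMIs over both classes in each library. Ifi209, a nucleic acid-binding PYHIN protein, was 98.3 to 4133 times higher, where the top value, of IgG replicate 2, rests on 2 UMIs in tumour-like cells (exact 95% counting interval 1108 to 34711). Slfn5, a Schlafen family protein, was 14.0 to 125 times higher. Its level in tumour-like cells was at 1.82 to 3.74 CPM (UMIs per 1000000 UMIs of the class in a library) in all 7 libraries, whatever the score. Bst2 went the other way in part, with a higher level in macrophage-like cells in 3 of 7 libraries only.

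In tumour-like cells, BP against IgG addressed the effect of the VEGF and PD-L1 antibodies on these genes. All 36 were tested, and edgeR's quasi-likelihood test called 0 of them at an adjusted p of 0.05, as it called 0% of all genes; 26 had an unadjusted p under 0.05 (1.92% of all genes), and DESeq2 called 2 (0.232%). The fitted difference was above 0 for 36 of 36, with a median of 2.10 on the log2 scale, beside -0.00 over all genes tested. Both BP libraries were above both IgG libraries for 33 of 36, against 12.5% of all genes. Such counts of libraries above or below others use CPM scaled as in the test, whereas single levels are printed without that scaling. The score was 38.2 ± 31.0 in BP and 12.4 ± 2.89 in IgG (SD, n = 2 each), so the difference was smaller than the spread between the BP libraries. Without BP replicate 1 the median was 0.99, and without BP replicate 2 it was 2.84. With UT joined to IgG as the control it was -0.26, on the other side of 0.

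Among the effectors, Isg15 had 1663 CPM in UT, 151 and 72.7 in IgG, 598 and 192 in BP, 472 in BPI and 35.001 in CD40. Its partner Usp18, the protease that removes ISG15 and dampens receptor signalling, had 336, 12.0 and 5.94, 98.4 and 16.97, 37.7 and 5.79 CPM in the same order. Both put BP replicate 2 just above the IgG libraries and far below BP replicate 1, with no overlap between BP and IgG. For Isg15 the fitted difference was 1.73 (SE 0.65, edgeR adjusted p 0.99996), and for Usp18 it was 2.57 (SE 0.88, edgeR adjusted p 0.99996).

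The IFIT proteins bind viral RNA that lacks host cap marks. Ifit1 had 335 CPM in UT, 17.1 and 10.3 in IgG, 117 and 30.3 in BP, 93.5 in BPI and 3.92 in CD40. Ifit3, of the same family, had 341, 10.1 and 5.77, 108 and 18.5, 77.2 and 3.41 CPM in the same order. For both, BPI lay between the BP libraries, CD40 was below both IgG libraries, and BP and IgG did not overlap. Rsad2 encodes viperin, an enzyme that makes a chain-terminating nucleotide from the product of its neighbour Cmpk2. Rsad2 had 290 CPM in UT, 37.2 and 11.3 in IgG, 143 and 66.0 in BP, 166 in BPI and 5.65 in CD40, so that BPI was above both BP libraries. This held for 3 of the 36 genes in tumour-like cells, against 26.6% of all genes.

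Among the sensors and the OAS family, levels in IgG differed from gene to gene. Ddx58, which encodes the RNA sensor RIG-I, had 102 CPM in UT, 28.3 and 20.4 in IgG, 100.3 and 34.9 in BP, 52.9 in BPI and 15.9 in CD40. Ifi204 was nearly absent in IgG, at 0.63 and 0.35 CPM, and reached 90.4 in UT and 81.5 in BP replicate 1, but only 1.83 in BP replicate 2 and 4.87 in BPI. Its UMIs were found in 33.5% of tumour-like cells in UT and 60.7% in BP replicate 1, and in 0.34% to 3.70% in the other 5 libraries. Oasl2, an OAS-like protein, had 401 CPM in UT, 27.5 and 13.5 in IgG, 209 and 45.5 in BP, 104 in BPI and 8.63 in CD40.

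Irf7, the transcription factor that amplifies interferon production, had 690 CPM in UT, 23.2 and 10.99 in IgG, 162 and 35.7 in BP, 96.9 in BPI and 5.36 in CD40. Ifi27l2a had 1735, 66.0 and 51.9, 345 and 79.4, 189 and 36.2 CPM in the same order. Rnf213, a large ubiquitin ligase, had 427 CPM in UT and was higher in BP replicate 1, at 526, with 92.0 and 69.0 in IgG, 110 in BP replicate 2, 171 in BPI and 60.6 in CD40. Of the genes of the PARP9 and DTX3L role, which form a ubiquitin ligase with an ADP-ribosyltransferase partner, Parp14 had 107 CPM in UT and 193 in BP replicate 1, and Dtx3l 74.7 and 125. UT and BP replicate 1 thus differed in order between genes: summed over the PARP9 and DTX3L role BP replicate 1 was higher (4.78 against 3.24 UMIs per 10000), and summed over the IFIT family UT was higher (9.40 against 3.34).

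Bst2, the most abundant of the 36 in this class, had 2311 CPM in UT, 505 and 354 in IgG, 759 and 331 in BP, 597 in BPI and 253 in CD40. BP replicate 2 was below IgG replicate 1 and close to IgG replicate 2, so the groups overlapped, and the fitted difference of BP against IgG was 0.28 (SE 0.45, edgeR adjusted p 0.99996).

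**Figure D2:**
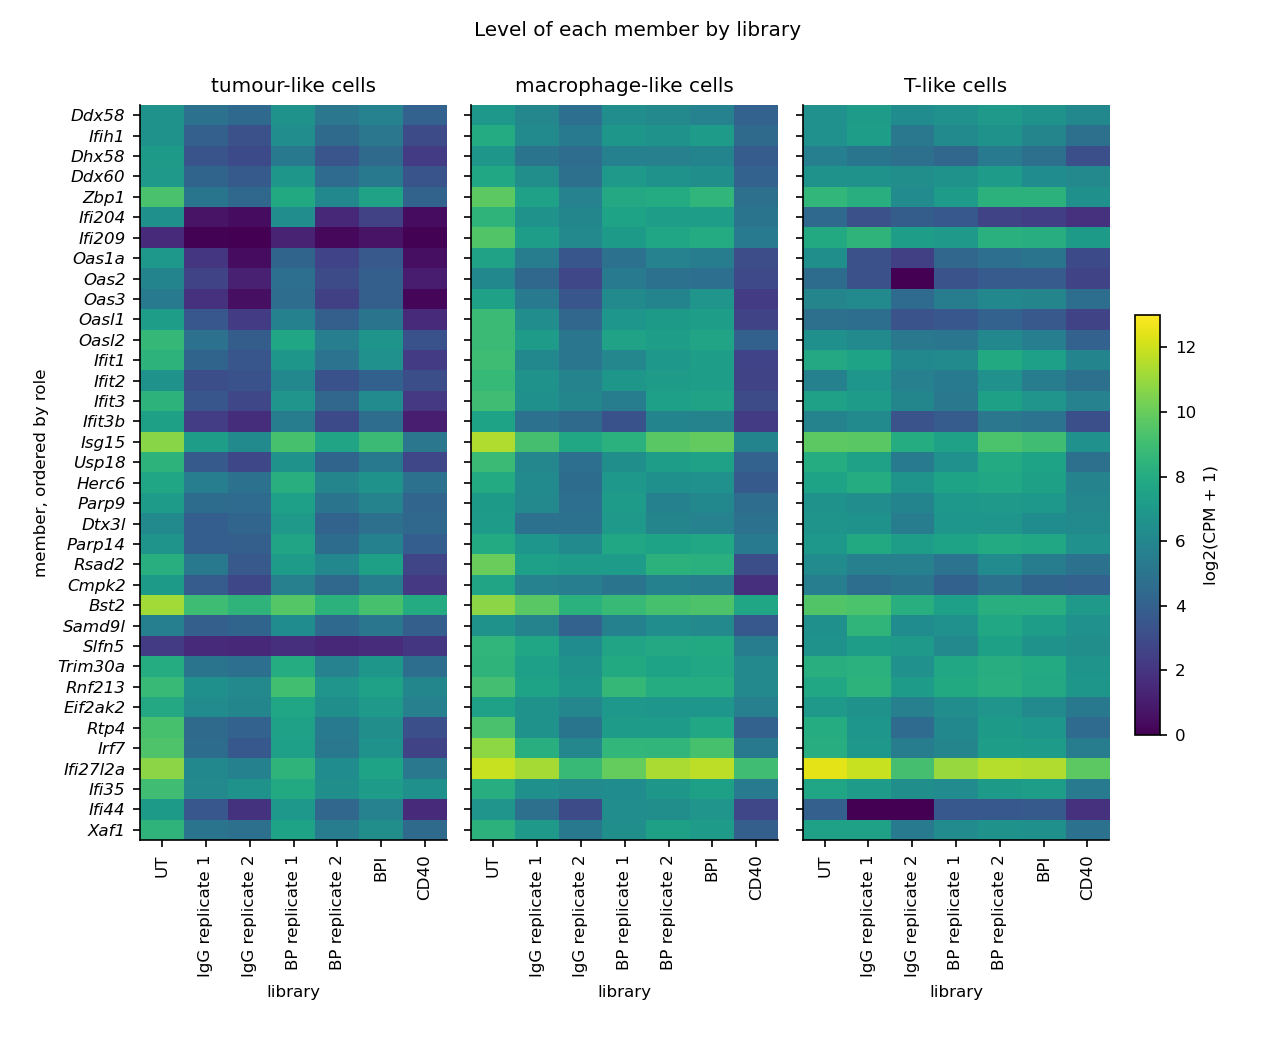
Levels of the 36 genes by library in tumour-like, macrophage-like and T-like cells, as log2(CPM + 1), with genes in rows ordered by role and libraries in columns. In tumour-like and macrophage-like cells the UT column is highest for most genes, and the CD40 column is lowest for most.

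Libraries with neighbouring numbers allowed pairs to be set side by side, 1 library against 1, with no test. Differences were taken as log2 ratios of CPM + 5, which shrinks those of low genes, over genes with at least 10 UMIs in the pair. In tumour-like cells 0 of the 36 genes were 2-fold higher in BP replicate 2 than in IgG replicate 1 (0.148% of all genes compared), with a median log2 difference of 0.34. As plain ratios of CPM, 3 of 36 (Zbp1, Ifi204 and Ifi209) were 2-fold higher, beside 3.66% of all genes. In BPI against IgG replicate 1, 21 of 36 were 2-fold higher (0.554% of all genes), with a median of 1.14, and in BPI against BP replicate 2, 14 of 36 (0.168%), with a median of 0.86. CD40 against IgG replicate 2 had 0 of 35 on either side (0.0582% of all genes) and a median of -0.22. As plain ratios, 30 of 36 were 2-fold higher in BPI than in IgG replicate 1 and 22 of 36 in BPI than in BP replicate 2, beside 4.43% and 2.19% of all genes. In CD40, 6 of 35 were 2-fold lower than in IgG replicate 2 (Oas3, Ifit1, Ifit3b, Isg15, Rsad2 and Irf7), beside 1.42% of all genes. The 2 BP libraries, whose numbers are not neighbours, were set side by side as well: 34 of 36 were 2-fold higher in BP replicate 1 (6.09% of all genes), with a median of 1.88.

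**Figure D3:**
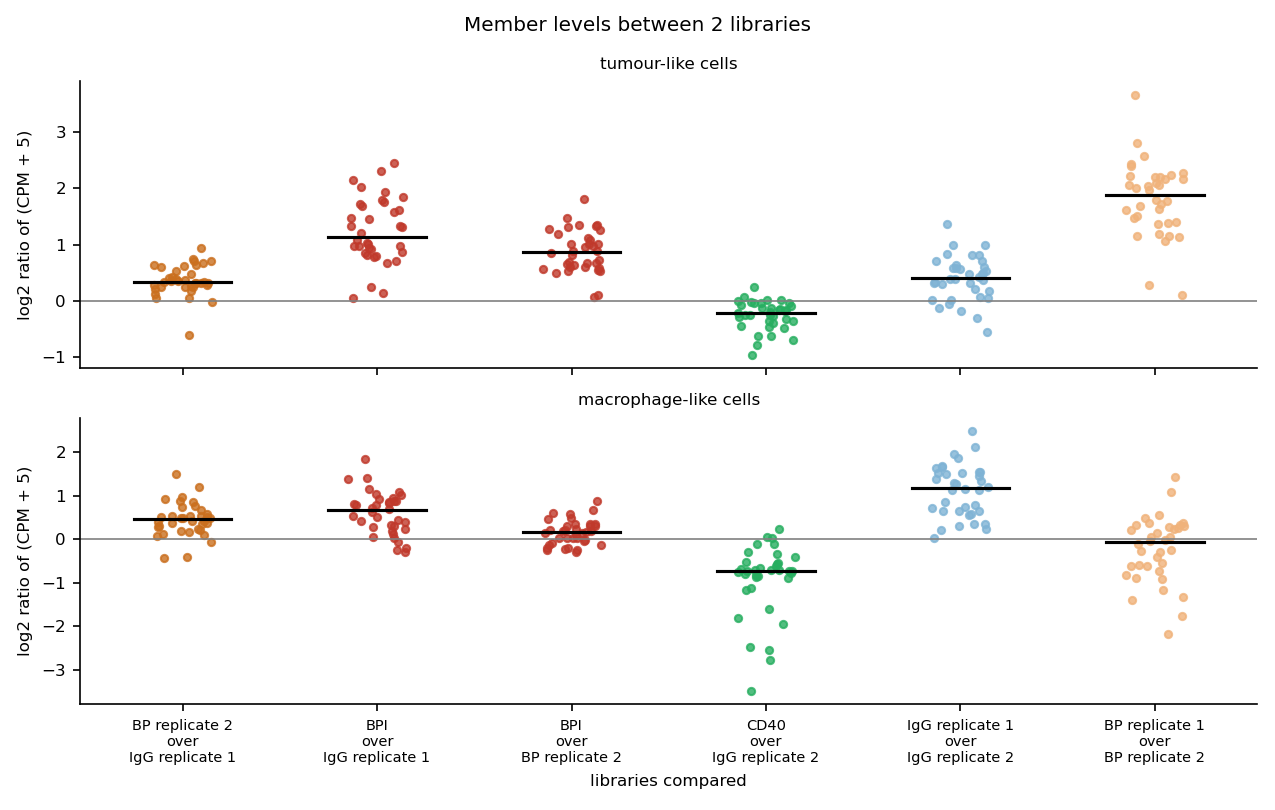
Log2 ratio of (CPM + 5) of each of the 36 genes between 2 libraries, 1 point per gene with the median as a line, in tumour-like (top) and macrophage-like cells (bottom). In tumour-like cells the points of BP replicate 2 over IgG replicate 1 lie near 0 (median 0.34), those of BPI over IgG replicate 1 around 1.14 and those of BP replicate 1 over BP replicate 2 around 1.88.

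Single clusters, whose cells are more alike, were read in the same way. In cluster 21 the score was 13.4 in IgG replicate 1, 15.1 in BP replicate 2 and 31.3 in BPI, and in cluster 22 it was 15.3, 16.7 and 34.2. In cluster 18, which 6 libraries share, it was 19.6 and 8.39 in IgG, 24.0 and 15.2 in BP, 34.9 in BPI and 7.01 in CD40. BP and IgG overlapped there. In cluster 14 it was 11.2 in IgG replicate 2, 27.8 in BP replicate 2 (74 cells), 53.8 in BPI (65 cells) and 7.85 in CD40. Cluster 10 held cells of UT (110, 21 cells), BP replicate 1 (57.3), IgG replicate 2 (30.1) and CD40 (25.7). Clusters 1, 2, 3 and 6 had under 20 cells of either IgG library.

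The other contrasts in tumour-like cells called 0 of 36 genes as well, beside 0% of all genes in each. All comparisons with IgG share the same IgG libraries. For BPI against IgG, 13 genes had an unadjusted p under 0.05 in edgeR (0.984% of all genes) and DESeq2 called 0 (0.0396%), and BPI was above both IgG libraries for 36 of 36 (29.8% of all genes). For CD40 against IgG, 0 genes had an unadjusted p under 0.05 (0.0692% of all genes) and DESeq2 called 0 (0%), and CD40 was below both IgG libraries for 31 of 36 (30.3% of all genes), with a median of -0.82, or -0.39 without IgG replicate 1. For BPI against BP both counts were 0 (0.143% of all genes at an unadjusted p under 0.05). The median was 0.02, but 1.21 without BP replicate 1 and -0.57 without BP replicate 2. UT against IgG, a comparison of controls, had 33 genes at an unadjusted p under 0.05 (12.8% of all genes), 30 calls by DESeq2 (4.26% of all genes) and a median of 3.83, and UT was above both IgG libraries for 36 of 36 (38.4% of all genes). UT was 10.6 times the IgG mean in the tumour-like score, and 3.65 times IgG replicate 2 in cluster 10, the cluster that UT and an IgG library share with at least 20 cells each.

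In macrophage-like cells 9 of 36 genes rose in UT against IgG (edgeR, 1.33% of all genes rose). They were Usp18, Ifit1, Oasl1, Rtp4, Oas3, Ifit2, Dtx3l, Ifih1 and Dhx58, which span the ISG15 system, the IFIT and OAS families, the PARP9 and DTX3L role, the sensors and a chaperone-like effector (Rtp4). UT had 526 macrophage-like cells and the IgG libraries only 46 and 47, so low genes rest on few UMIs in IgG. Usp18 had 458 CPM in UT, 62.7 and 26.1 in IgG, 87.3 and 149 in BP, 170 in BPI and 16.3 in CD40, and UT differed from IgG by 3.76 (SE 0.65, edgeR adjusted p 0.0363). Ifit1 had 494, 65.0 and 33.7, 63.0 and 122, 151 and 5.04 CPM in the same order and differed by 3.71 (SE 0.63, edgeR adjusted p 0.0359). Oas3, which makes the 2-5A messenger that activates RNase L, had 173, 38.1 and 10.1, 71.2 and 57.2, 109 and 3.87 CPM and differed by 3.34 (SE 0.65, edgeR adjusted p 0.0481). UT was above every other library for these 3 genes. Rtp4 had 616, 103 and 32.0, 138 and 140, 214 and 16.3 CPM, and Oasl1 had 465, 80.7 and 18.5, 113 and 136.9, 151 and 5.42 CPM. Ifit2 had 425, 98.6 and 55.6, 116 and 145, 155 and 5.42 CPM. The sensor gene Ifih1, which encodes MDA5, had 251, 71.7 and 41.3, 119 and 102, 144 and 21.3 CPM. Dtx3l had 144, 29.1 and 28.7, 131 and 59.2, 53.8 and 29.1 CPM, with BP replicate 1 close to UT. Dhx58 had 117, 31.4 and 24.4, 51.3 and 49.0, 57.2 and 12.8 CPM. These 6 differed by 2.44 (Dhx58) to 3.65 (Oasl1), with edgeR adjusted p of 0.0400 to 0.0487. Across the 9 genes, BP, BPI and CD40 were all below UT, and CD40 was the lowest library for 8, all but Dtx3l. UT was above both IgG libraries for these and for all 36 genes (42.4% of all genes). The count rested on single libraries: without IgG replicate 2 it was 0 (0.8% of all genes were called), without IgG replicate 1 it was 20 (3.55%), and without BP replicate 1 or BP replicate 2 it was 35 (14.7% and 12.5%). With RLE size factors it was 4 (1.15%), and DESeq2 called 23 (2.7%). Of the UT cells 97.7% lie in 1 subcluster (7+19.0), and of the IgG cells 95.7% and 97.9% lie in another (7+19.3).

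For BP against IgG, edgeR called 0 of 36 genes in macrophage-like cells (0% of all genes), with 10 at an unadjusted p under 0.05 (8.01% of all genes) and 0 by DESeq2 (0.734%). The score was 72.7 ± 17.9 in BP and 47.6 ± 32.4 in IgG (SD, n = 2 each), a difference within the spread of the IgG libraries. BP was above IgG without overlap for 24 of 36 genes (22.5% of all genes). The median difference was 0.998 on the log2 scale, 0.44 to 1.56 with 1 library left out, and turned to -0.49 with UT joined to IgG. Isg15 had 2833 CPM in UT, 574 and 218 in IgG, 317 and 807 in BP, 943 in BPI and 58.1 in CD40. Ifi27l2a had 3858 CPM in UT, 2474 and 437 in IgG, 985 and 2615 in BP, 3343 in BPI and 516 in CD40. For both genes BP and IgG overlapped, and BP replicate 1 was below IgG replicate 1, BP replicate 2 and BPI. Bst2 had 1727 CPM in UT, 805 and 317 in IgG, 445 and 598 in BP, 672 in BPI and 198 in CD40, in the same pattern. Irf7 had 1771 CPM in UT, 291 and 63.2 in IgG, 387 and 376 in BP, 601 in BPI and 36.8 in CD40, with no overlap. The order of the BP libraries was thus not that of tumour-like cells, where BP replicate 1 was 3.69 times BP replicate 2 in the score. In macrophage-like cells it was 0.703 times. Its macrophage-like cells lie in other subclusters (42.1% in 7+19.5, 35.96% in 7+19.6 and 21.3% in 7+19.7) than those of BP replicate 2 (96.2% in 7+19.3), and whether this bears on the order was not tested.

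For BPI against IgG, edgeR called 0 of 36 in macrophage-like cells (0% of all genes), with 14 at an unadjusted p under 0.05 (5.05% of all genes) and 0 by DESeq2 (0.171%), and BPI was above both IgG libraries for 34 of 36 (35.7% of all genes). For CD40 against IgG, edgeR called 0 (0% of all genes), with 18 at an unadjusted p under 0.05 (1.05% of all genes) and 3 by DESeq2 (0.0402%). The median was -1.60, or -0.77 without IgG replicate 1, and CD40 was below both for 33 of 36 (26.3% of all genes). Rsad2 had 7.75 CPM in CD40 against 164 and 139 in IgG, and Ifit1 had 5.04 against 65.0 and 33.7. Within subcluster 7+19.3, which holds most macrophage-like cells of 5 libraries, the score was 68.1 and 25.8 in IgG, 89.004 in BP replicate 2, 99.8 in BPI and 14.3 in CD40. CD40 there remained below both IgG libraries, and BP replicate 2 and BPI above them. For BPI against BP edgeR called 0 of 36 (0% of all genes), with 0 at an unadjusted p under 0.05 (1.81% of all genes) and 0 by DESeq2.

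Monocyte-like cells gave the most calls, in CD40 against IgG, where 21 of 36 genes fell (edgeR, 1.07% of all genes fell). IgG replicate 2 had only 13 such cells and was left out of the fit, so this sets 29 cells of CD40 beside 29 of IgG replicate 1. Only the 2 BP libraries were replicated in that fit, so its p-values measure no spread within IgG or CD40. With RLE size factors 8 fell (0.178% of all genes were called). Rsad2 had 3185 CPM in IgG replicate 1 and 17.3 in CD40 and differed by -7.67 (SE 1.28, edgeR adjusted p 8.58e-06). Isg15 had 4037 and 12.9 CPM, where the latter is 3 UMIs, and was 312 times lower in CD40 (exact 95% counting interval 106 to 1517, edgeR adjusted p 8.15e-06). Ifit2, with 1 UMI in CD40, was 183 times lower (interval 32.2 to 7304, edgeR adjusted p 1.42e-05), and Cmpk2, with 3, was 46.2 times lower (15.2 to 229, edgeR adjusted p 0.000192). Ifit3, Ifit1, Oasl1, Rtp4, Ifit3b and Ifi44 had 0 UMIs in CD40, and against a floor of 3 counts they were at least 38.5-fold, 37.9-fold, 37.9-fold, 24.9-fold, 11.3-fold and 9.48-fold lower than in IgG replicate 1. The same genes were also read in UT, BP, BPI and IgG replicate 2. Ifit2 had 121, 647 and 801, 651 and 34.6 CPM in that order, and Cmpk2 had 70.7, 187 and 291, 255 and 0. Ifit3 had 242, 143 and 523, 503 and 23.1, Ifit1 had 131, 270 and 556, 559 and 46.1, and Oasl1 had 90.9, 285 and 458, 547 and 23.1 CPM. Rtp4 had 384, 330 and 339, 364 and 34.6, Ifit3b had 90.9, 23.7 and 123, 107 and 23.1, and Ifi44 had 40.4, 88.5 and 186, 209 and 0 CPM. IgG replicate 2 was lower than UT, BPI and both BP libraries for all 8 genes. The other called genes included the sensors Ddx58, Ifih1, Ddx60, Ifi204 and Ifi209.

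The left-out library was unlike IgG replicate 1. In its 13 monocyte-like cells Rsad2 had 0 UMIs and Isg15 196 CPM, and the score was 36.2, close to the 24.7 of CD40 and below the 260 of IgG replicate 1, 177 and 258 of BP, 247 of BPI and 160 of UT. Isg15 had 2071 CPM in UT, 1261 and 3994 in BP and 3503 in BPI, and Rsad2 had 667, 838 and 2185, and 2113. Ifi27l2a, the most abundant, had 5343 CPM in UT, 4191 and 1165 in IgG, 2597 and 4824 in BP, 5397 in BPI and 1062 in CD40, with BP overlapping IgG. CD40 and IgG replicate 2 also share a subcluster, with 93.1% and 92.3% of these cells in 7+19.1, where 65.5% of those of IgG replicate 1 are in 7+19.4. The calls therefore compare CD40 with 1 IgG library, and the other was not tested. Within 7+19.1 the score was 20.4 in CD40, 81.4 in BP replicate 1, 109 in BPI and 114 in UT. BP and BPI against IgG and BPI against BP called 0 of 36 each (edgeR, 0.178%, 0.0959% and 0.288% of all genes were called), with 0 at an unadjusted p under 0.05 (5.22%, 4.66% and 2.93% of all genes) and 0 by DESeq2 (0.0137%, 0.0822% and 0%). UT against IgG called 0 too (0.398% of all genes), with 7 at an unadjusted p under 0.05 (8.97% of all genes) and 0 by DESeq2 (0.0443%).

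In cluster 15, edgeR called 0 of 36 genes in every contrast (0% of all genes). The score was 83.7 in UT, 27.7 and 8.81 in IgG, 50.5 and 23.3 in BP, 54.2 in BPI and 8.08 in CD40. BP replicate 2 lay below IgG replicate 1, so the groups overlapped. The counts at an unadjusted p under 0.05 were 17 for BP, 16 for BPI, 4 for CD40 and 27 for UT against IgG and 2 for BPI against BP, beside 4.62%, 3.25%, 0.341%, 8.12% and 3.12% of all genes. DESeq2 called 9 for UT (0.714% of all genes) and 0 for the others (0% to 0.3%). Without BP replicate 2, BP against IgG called 25 of 36 (6.83% of all genes), a result of BP replicate 1 alone. The median difference of BP against IgG was 1.43 on the log2 scale, 0.75 to 2.20 with 1 library left out and -0.04 with UT joined to IgG. Isg15 had 850 CPM in UT, 331 and 75.3 in IgG, 223 and 160 in BP, 845 in BPI and 46.3 in CD40, so that BPI was near UT and BP lay between the IgG libraries. Ifi27l2a had 1223, 479 and 86.9, 1031 and 348, 787 and 116 CPM in the same order, and here BP replicate 1 was near UT. Bst2 had 911, 341 and 122, 416 and 117, 438 and 104 CPM, with BP replicate 2 below both IgG libraries.

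T-like cells showed the narrowest spread. The IgG libraries had only 39 and 59 such cells, so low genes rest on few UMIs there. The score was 117 in UT, 97.5 and 30.2 in IgG, 49.4 and 83.2 in BP, 71.5 in BPI and 26.2 in CD40, and the means of IgG (63.9 ± 47.5) and BP (66.3 ± 23.9; SD, n = 2 each) were close beside their spread. Of 36 genes, 33 passed the filter on low counts for the treated groups, and edgeR called 0 for BP (0.533% of all genes were called), BPI (0.489%) and CD40 (0.0111%) against IgG, as well as 0 when BPI was compared with BP (0.122%). At an unadjusted p under 0.05 there were 1, 1, 12 and 0, beside 7.73%, 6.57%, 3.74% and 2.43% of all genes, and DESeq2 called 0 in each (0% to 0.189% of all genes). In UT against IgG 2 of 36 rose (edgeR, 1.06% of all genes rose). Rtp4 had 260 CPM in UT, 115 and 22.2 in IgG, 65.0 and 133 in BP, 112 in BPI and 22.7 in CD40, and UT differed from IgG by 2.04 (SE 0.58, edgeR adjusted p 0.0427). Oas1a had 86.6 CPM in UT and 1 UMI in each IgG library, so that UT was 15.03 times higher, with an exact 95% counting interval of 4.10 to 125 (edgeR adjusted p 0.00602). It had 18.4 and 25.6 CPM in BP, 31.6 in BPI and 6.67 in CD40. Ifi27l2a, the leading gene of this class, had 5750 CPM in UT, 3792 and 577 in IgG, 2046 and 3013 in BP, 2829 in BPI and 850 in CD40, with the BP libraries inside the range of IgG. Isg15 had 846, 819 and 262, 175 and 628, 511 and 96.1 CPM in the same order, with BP replicate 1 below both IgG libraries. Bst2 had 708, 639 and 289, 159 and 285, 279 and 125 CPM, with BP replicate 2 close to IgG replicate 2 and BP replicate 1 below both. The count for UT was 0 without IgG replicate 2 (0.558% of all genes were called) or without BP replicate 1 (0.0791%), 4 without IgG replicate 1 (1.82%) and 5 without BP replicate 2 (3.83%), and it was 1 with RLE size factors (1.47%).

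In NK-like cells CD40 again had the lowest score. The score was 77.2 in UT, 59.0 and 26.5 in IgG, 32.0 and 53.4 in BP, 49.4 in BPI and 10.6 in CD40. Isg15 had 809 CPM in UT, 620 and 409 in IgG, 104 and 436 in BP, 374 in BPI and 48.6 in CD40. Trim30a, a TRIM family protein, had 509, 392.3 and 97.3, 329 and 378, 402 and 71.3 CPM in the same order. Bst2 had 771, 420 and 156, 118 and 220, 226 and 87.5 CPM. For these 3 genes CD40 was the lowest library. In CD40 against IgG, 4 of the 34 genes tested fell (edgeR, 0.0974% of all genes fell): Oasl2, Slfn5, Ifi27l2a and Eif2ak2, which encodes the kinase PKR. This again compares CD40 with IgG replicate 1, since IgG replicate 2 had 15 cells. The spread in this fit came from the 2 BP libraries alone. Oasl2 had 0 UMIs in CD40 and was at least 12.2-fold lower than in IgG replicate 1, but had 0 UMIs in IgG replicate 2 as well. Slfn5 had 6.48 CPM in CD40 (2 UMIs), 155 in IgG replicate 1 and 58.4 in IgG replicate 2, and was 23.9 times lower in CD40 than in IgG replicate 1 (exact 95% counting interval 5.68 to 214). Ifi27l2a, with 2 UMIs in CD40, was 87.3 times lower (23.2 to 737) and Eif2ak2, with 3, was 17.8 times lower (5.25 to 94.1), and both had 0 UMIs in IgG replicate 2. In UT, BP and BPI, Oasl2 had 134, 37.2 and 79.2, and 34.5 CPM, Slfn5 had 70.1, 58.2 and 83.6, and 74.9, Ifi27l2a had 486, 95.1 and 431, and 376, and Eif2ak2 had 106, 99.96 and 96.8, and 122. CD40 was below these libraries for all 4 genes. Of the 4, Slfn5 was the gene for which CD40 lay below both IgG libraries. Clustering with the interferon genes included gave 0 calls for CD40 against IgG (0% of all genes), as did DESeq2 (0%), and RLE size factors gave 9 (0.341%). The other contrasts called 0 in edgeR (0% of all genes, and 0.162% for BPI against BP), with 4 (BP), 1 (BPI), 4 (UT) and 1 (BPI against BP) at an unadjusted p under 0.05, beside 4.27%, 2.86%, 5.63% and 2.53% of all genes, and 0 by DESeq2 (0% to 0.0271%).

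Endothelial-like cells were too few for the main test, with 13 in IgG replicate 1 and 6 in BP replicate 2. Their score was 116 in UT, 42.3 and 15.9 in IgG, 56.4 and 60.7 in BP, 80.6 in BPI and 12.3 in CD40. Bst2 had 2046 CPM in UT, 890 and 292 in IgG, 710 and 258 in BP, 1118 in BPI and 210 in CD40, where the 258 of BP replicate 2 rests on 4 UMIs. Isg15 had 1612, 759 and 166, 523 and 194, 1091 and 65.2 CPM in the same order. Ifi27l2a had 1311, 67.8 and 40.3, 324 and 64.6, 711 and 35.8 CPM. In all 3, UT was highest, BPI second and CD40 lowest, and BP overlapped IgG. A fit was possible only with UT joined to IgG and BP replicate 1 alone for BP, and its median log2 difference was -0.22.

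The scores were also read cell by cell. Each cell was thinned to 1000 UMIs, and cells with at least 5 UMIs from the 36 genes were counted as the high range, which is a range and not a cell type. In tumour-like cells it held 89.3% of UT, 7.23% and 3.53% of IgG, 52.6% and 9.24% of BP, 26.7% of BPI and 1.83% of CD40. Cells with 0 such UMIs after thinning were 0.623% in UT, 40.1% and 47.6% in IgG, 3.59% and 37.7% in BP, 17.4% in BPI and 52.4% in CD40. The median score per cell was 119 in UT, 8.14 and 6.63 in IgG, 47.0 and 8.77 in BP, 25.4 in BPI and 6.16 in CD40, so the medians of UT and BP replicate 1 were the highest. In macrophage-like cells the high range held 94.9% of UT, 65.2% and 21.3% of IgG, 53.8% and 78.9% of BP, 79.9% of BPI and 7.58% of CD40. BP replicate 1 there was below IgG replicate 1. Free RNA was estimated at 0% to 8.17% of the UMIs of the 36 genes in a class and library. The estimates of 0% all came from sets of 6 to 29 cells, so they do not show that free RNA was absent there.

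**Figure D4:**
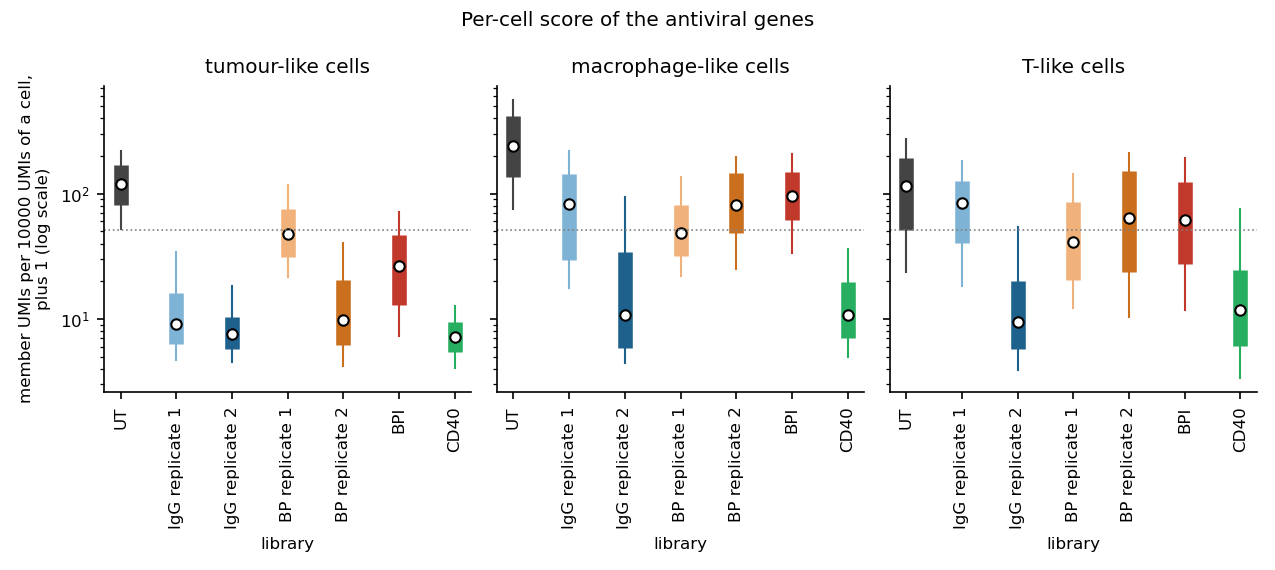
Score of single cells before thinning (UMIs of the 36 genes per 10000 UMIs of the cell, plus 1, log axis) by library in tumour-like, macrophage-like and T-like cells; circles are medians, bars span the middle quartiles, lines run from the 10th to the 90th percentile, and the dotted line marks the level of 5 UMIs in 1000. In tumour-like cells the median of UT (119) is above the dotted line, that of BP replicate 1 (47.0) is just below it, and those of IgG, BP replicate 2 and CD40 are far below it.

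The ligands were rarely seen. Of 19 type I and III interferon genes, 7 had a UMI, 742 in all in 48588 cells. Ifnb1, the first type I interferon made by most cells, had 342 UMIs in 57 cells: 224 in UT, 78 in BP replicate 1, 23 in BPI, 8 in CD40, 4 in BP replicate 2, 4 in IgG replicate 1 and 1 in IgG replicate 2. UT and BP replicate 1 had the most Ifnb1 UMIs, but 1 cell held 59 of the 78 in BP replicate 1. In UT, 7 cells held 201 of the 224. By cells with a UMI the order was UT (25), BPI (15) and BP replicate 1 (9). Of the Ifnb1-positive cells 34 were tumour-like, and 11 cells with 5 or more UMIs held 279 of the 342. Among tumour-like cells the median score with an Ifnb1 UMI was 184 in UT (24 cells), 264 in BP replicate 1 (7 cells), 15.9 in BPI (2 cells) and 179 in IgG replicate 2 (1 cell), against 119, 47.0, 25.4 and 6.63 in all tumour-like cells of these libraries. Cells with the UMI thus had the higher value in UT, BP replicate 1 and IgG replicate 2 and the lower in BPI. Ifnk accounted for most of the other ligand UMIs, with 389: 60 in UT, 39 and 111 in IgG, 21 and 29 in BP, 31 in BPI and 98 in CD40. It was thus most counted in IgG replicate 2 and CD40. These 2 libraries had 163581082 and 156486731 UMIs in total, against 94948473 in UT and 186793886 in BP replicate 1. Over all 19 ligand genes the UMIs were 286 in UT, 43 and 114 in IgG, 102 and 34 in BP, 56 in BPI and 107 in CD40. These UMIs are not scaled for depth.

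Interferon gamma was abundant in T-like cells. Ifng had 287 CPM in UT, 57.3 and 97.7 in IgG, 335 and 405 in BP, 1573 in BPI and 38.7 in CD40. It rose in BP against IgG by 2.03 (SE 0.49, edgeR adjusted p 0.0384), in BPI against IgG by 4.35 (SE 0.55, edgeR adjusted p 2.83e-06) and in BPI against BP by 2.32 (SE 0.49, edgeR adjusted p 0.0267). The IgG values rest on 7 and 22 UMIs in 39 and 59 cells, and that of CD40 on 29 UMIs. With some single IgG or BP library left out, the Ifng calls in BP against IgG and in BPI against BP were lost. In NK-like cells Ifng had 124 CPM in UT, 155 and 214 in IgG, 73.7 and 189 in BP, 223 in BPI and 94.0 in CD40. BP and IgG overlapped there. T-like cells made up 5.12% of UT, 0.656% and 0.787% of IgG, 13.5% and 3.99% of BP, 9.01% of BPI and 1.67% of CD40. UT, both BP libraries and BPI were thus above both IgG libraries in the share of T-like cells and in their Ifng. The part of either in the levels of the 36 genes was not tested.

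Of the 16 receptor and JAK-STAT genes in tumour-like cells, edgeR called 0 in BP against IgG, and 15 of 16 differences were above 0, with a median of 0.69. Stat2 had 84.2 CPM in UT, 11.4 and 9.84 in IgG, 84.6 and 17.1 in BP, 24.97 in BPI and 8.22 in CD40. Irf9 had 49.5 CPM in UT, 8.56 and 8.52 in IgG, 37.3 and 12.3 in BP, 15.9 in BPI and 7.93 in CD40. Irf1, which interferon gamma induces, had 177, 21.1 and 23.6, 163 and 34.2, 51.8 and 24.7 CPM in the same order. These 3 genes were highest in UT and BP replicate 1. The receptor gene Ifnar1 varied far less, with 30.3 CPM in UT, 19.4 and 29.7 in IgG, 37.3 and 17.4 in BP, 15.2 in BPI and 33.0 in CD40, and BP overlapped IgG. Ifnar2, of the same receptor, had 144 CPM in UT, 41.0 and 63.2 in IgG, 91.6 and 43.2 in BP, 48.0 in BPI and 61.5 in CD40. Ifngr1, of the gamma receptor, had 24.9 to 32.3 CPM in all 7 libraries. In macrophage-like cells 2 of these 16 genes and 1 of 9 sensor adaptors tested rose in UT against IgG, beside 1.33% of all genes. In T-like cells 1 of 16 receptor and JAK-STAT genes rose in BPI (0.489% of all genes were called) and in UT against IgG (1.06% rose). It was Irf8 in both, a transcription factor of the interferon regulatory family, and it was named after its values were seen.

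The GBP and IRG genes, GTPases that interferon gamma induces strongly, served for comparison. In tumour-like cells they had 35.95 UMIs per 10000 in UT, 3.63 and 3.18 in IgG, 47.6 and 7.70 in BP, 17.8 in BPI and 3.997 in CD40. All 16 tested were above 0 in BP against IgG, with a median of 3.29 beside the 2.10 of the 36 antiviral genes, and edgeR called 0. The antiviral genes gave 3.65 UMIs per GBP or IRG UMI in UT, 3.97 and 3.25 in IgG, 1.26 and 2.11 in BP, 1.89 in BPI and 1.96 in CD40. UT lay between the IgG libraries in this ratio, and BP, BPI and CD40 were below them. In macrophage-like cells the ratio was 6.42 in UT, 30.9 and 21.9 in IgG, 2.34 and 14.1 in BP, 9.31 in BPI and 11.5 in CD40, with both IgG libraries highest. In macrophage-like cells 10 of 16 GBP and IRG genes and 4 of 8 gamma-associated genes rose in UT against IgG, beside 1.33% of all genes. Cxcl10, a chemokine that both kinds of interferon induce, had 825 CPM in tumour-like cells of UT, 28.5 and 9.92 in IgG, 518 and 100.6 in BP, 437 in BPI and 2.24 in CD40. Cxcl10 fell in CD40 against IgG replicate 1 in monocyte-like cells (log2 difference -5.97, SE 1.18, edgeR adjusted p 0.000281), from 256 UMIs to 8, as 1 of 8 gamma-associated genes tested (1.07% of all genes fell). In NK-like cells Cxcl10 also fell in edgeR, from 40 UMIs in IgG replicate 1 to 1 in CD40, so no fold is given. That call was lost with DESeq2 and with interferon genes included in the clustering. In T-like cells 1 of 15 GBP and IRG genes (Iigp1) rose in UT against IgG (1.06% of all genes rose).

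The genes outside the list that followed the score most closely were ranked by Spearman's correlation over 45 sums of a class in a library, which share libraries and differ in depth. They were Psmb9 (0.900), Psme2 (0.897), Psmb10 (0.893), Psmb8 (0.892), Daxx (0.892), Tspo (0.847), Parp11 (0.840), Ifi47 (0.835), Tap1 (0.828) and Igtp (0.824). Psmb8, Psmb9 and Psmb10 encode the catalytic subunits of the immunoproteasome, and Tap1 encodes part of the peptide transporter of antigen presentation. Among the 36 genes the correlation with the score was 0.953 for Isg15, the highest of 7170 genes ranked, and 0.610 for Samd9l, the lowest. Of the 36, 34 were among the 100 genes with the highest values, and each is part of the score it was compared with.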

How the data were processed

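Single-cell libraries of whole tumours were analysed in 5 groups taken from the sample titles. The deposited values are raw UMI counts of all barcodes, including empty droplets. Per the file headers the software was Cell Ranger 4, while the submitters' processing notes name Cell Ranger 7.0.1 and mm10. The 36 genes, the pathway lists and the markers were chosen with earlier results of these data known.

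Cells were barcodes with 1000 or more UMIs, 500 or more genes and no more than 15% mitochondrial UMIs (51795), and 3207 doublets by Scrublet score (scanpy 1.11.5, 0.8% per 1000 cells) were removed. Cells of all libraries were clustered together (2000 variable genes, 30 principal components, 15 neighbours, Leiden resolution 1 in igraph 0.11.9) without the 36 genes and related interferon genes. No class annotation is part of the files used, so clusters were named from 20 marker lists, and a difference from the study's own classes may come from these names. Free RNA was profiled from the empty droplets of each library.

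Sums of UMI counts by class and library were tested in edgeR 4.0.16 (R 4.3.3; quasi-likelihood, TMM, filterByExpr, Benjamini-Hochberg over all genes of a class and contrast, adjusted p under 0.05). The fit held 6 libraries (UT was left out), and UT against IgG used all 7. The spread of a lone library was taken from the replicated groups, and libraries with under 20 cells of a class were left out. In monocyte-like and NK-like cells BP was the only replicated group left. DESeq2 1.42.0 was an alternative. The test was also run on simulated counts, and no result here rests on that run. Scores got no p-value. Intervals are exact at 95% and, like the floor of 3 counts, cover counting error only. The thinned high range uses 1000 UMIs per cell.

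Values in every library are given for Isg15, Ifit1, Ifit3, Irf7, Rsad2, Usp18, Bst2, Ifi27l2a, Ddx58, Oasl2 and Rnf213 in tumour-like cells, for genes past the threshold in their class (up to 10 per class and contrast) and for the 3 most abundant of a class. Pathway genes were named from the lists, and genes like the score by rank at a mean of at least 20 CPM. Genes named beside these (Ifi204, Ifi209, Slfn5, Parp14, Dtx3l, Samd9l and Ifnk) were chosen after their values were seen.

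Replicate numbers were checked as pairs: the correlation of deviations between same-numbered IgG and BP libraries was -0.714 in tumour-like cells, -0.178 in macrophage-like cells, 0.026 in cluster 15 and -0.0869 in T-like cells, so they were not taken as pairs. Software versions were python 3.11.15, numpy 2.4.6, scipy 1.17.1, pandas 2.3.3, anndata 0.12.19, scikit-learn 1.9.0, matplotlib 3.10.9 and limma 3.58.1.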

Additional observations from a re-analysis of the deposited data

Results flagged for a closer look

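Signals of the 36 genes above the IgG level also appeared in cells that no comparison used. The unnamed cells had a score of 109 UMIs per 10000 in UT (172 cells), 59.3 in BP replicate 1 (198 cells), 24.5 in BP replicate 2 (841 cells) and 52.6 in BPI (598 cells), each above the higher IgG value of 14.4. The order of these 4 libraries was that of tumour-like cells. Over all libraries, 3278 of the 4083 unnamed cells are cluster 23, with a median depth of 0.14 of the library median. It matches the tumour-like markers best (5 of 12) and is led by Wfdc2, as clusters 21 and 22 are. Cluster 23 is thus not shown to be a separate kind of cell. Other unnamed clusters were unlike it. Cluster 9 (237 cells, 44.7% of them from UT) had 10 of 10 microglia markers raised and was led by C1q genes. Cluster 26 (43 cells, 97.7% of them from BP replicate 1) had 5 of 5 mast or basophil markers raised. The unnamed scores of UT and BP replicate 1 therefore mix kinds of cell. Oligodendrocyte-like cells of CD40 had 2.88 (52 cells), above the 1.79 of the IgG library with at least 20 such cells.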

How the results depend on the processing

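All 70 alternative values of the score difference between BP and IgG stayed within 1 SD of the value given, but 10 of them had the other sign: 1 in monocyte-like, 4 in T-like and 5 in NK-like cells. With 2 libraries in a group, leaving 1 out always moves its mean by less than 1 SD. For those values the limit therefore could not be passed and shows no stability. In tumour-like cells they ran from 3.92 to 47.8. Of the T-like values, -31.1 came without IgG replicate 2 and -14.4 without BP replicate 2, and the monocyte-like one was -42.7 without IgG replicate 2. Of 63 values of the high range, 3 had the other sign (1 in T-like, 2 in NK-like cells), and 62 stayed within 1 SD; the exception was cluster 15, where BP exceeded IgG by 34.0 percentage points with at least 3 UMIs as the limit. For single genes past the threshold, 228 alternative values kept the call, 66 lost it and 0 reversed. Of the counts of genes called, 248 stayed within 1.5 times, 45 were higher and 13 lower, and the cause was not tested. In monocyte-like and NK-like cells both tallies include the fit without IgG replicate 2, which repeats the main fit because that library was already out. The share of all genes called in the same fit stands in square brackets. DESeq2 called 2 genes for BP [0.232%] and 30 for UT [4.26%] against IgG in tumour-like cells, 3 for CD40 [0.0402%] and 23 for UT [2.7%] in macrophage-like cells, 9 for UT in cluster 15 [0.714%], 0 for UT in T-like cells [0.959%] and 0 for CD40 in NK-like cells [0%]. RLE size factors gave 4 (UT, macrophage-like) [1.15%], 8 (CD40, monocyte-like) [0.178%], 1 (UT, T-like) [1.47%] and 9 (CD40, NK-like) [0.341%]. Without the filter on low counts, against IgG, the counts were 5 (BP) [1.94%], 8 (BPI) [0.674%], 8 (CD40) [0.154%] and 34 (UT) [3.38%] in macrophage-like cells, 16 (BP) [1.38%], 17 (BPI) [0.59%], 2 (CD40) [0.154%] and 29 (UT) [1.34%] in cluster 15, with 2 for BPI against BP [0.236%], 1 for CD40 in T-like cells [0.0852%] and 7 for CD40 in NK-like cells [0.0872%]. A term for the run of IgG replicate 1, BP replicate 2 and BPI gave 18 (UT) [4.03%] in tumour-like cells, 5 (BP) [3.46%], 1 (BPI) [0.624%], 3 (CD40) [0.0805%] and 36 (UT) [9.08%] in macrophage-like cells and 7 (UT) [2.78%] in T-like cells. Keeping doublets gave 4 (UT, macrophage-like) [1.02%] and 1 (UT, T-like) [0.468%], clustering with interferon genes 4 (UT, macrophage-like) [1.11%] and 0 (CD40, NK-like) [0%], and subtracting free RNA 1 (UT, T-like) [2.08%] and 7 (CD40, NK-like) [0.23%].

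Leaving out each IgG or BP library in turn gave 0 to 2 (BP) [0% to 1.72%], 0 to 5 (BPI) [0% to 1.92%], 0 to 5 (CD40) [0% to 0.127%] and 0 to 35 (UT) [0.8% to 14.7%] against IgG in macrophage-like cells. The highest of the first 3 came without BP replicate 1. In cluster 15 it gave 0 to 25 (BP) [0% to 6.83%], 0 to 17 (BPI) [0% to 1.22%] and 0 to 27 (UT) [0% to 2.9%] against IgG and 0 to 1 for BPI against BP [0% to 3.21%], and in T-like cells 0 to 4 (BP) [0% to 2.71%], 0 to 2 (CD40) [0% to 0.222%] and 0 to 5 (UT) [0.0791% to 3.83%] against IgG and 0 to 7 for BPI against BP [0% to 2.48%], each highest without BP replicate 2. In monocyte-like and NK-like cells no such fit of CD40 against IgG could be made, because IgG replicate 2 was already out and too few libraries remained. With the replicate number as a block, BP against IgG called 1 gene in macrophage-like cells [2.03%] and 0 in tumour-like cells [0%], cluster 15 [0.13%] and T-like cells [0.559%]. No other contrast was fitted in this way. A crossed pairing (IgG replicate 1 with BP replicate 2), chosen after seeing the data, called 6 in macrophage-like cells [4.27%]. Depth limits the small classes: with 13 to 29 monocyte-like cells in the UT, IgG and CD40 libraries, low genes rest on single UMIs.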

Other observations

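Rarer immune classes were seen in a few libraries each. Plasmacytoid dendritic-like cells, known as strong producers of type I interferon, had a score of 183 UMIs per 10000 in UT, 85.3 in BP replicate 1 (203 cells) and 135 in BPI (34 cells). Dendritic-like cells had 162 in UT (31 cells) and 31.3 in BP replicate 1 (58 cells). B-like cells had 104 in UT (40 cells), 30.6 in BP replicate 1 (51 cells) and 12.4 in CD40 (57 cells). Neutrophil-like cells of BP replicate 1 had 176 (27 cells), above the tumour-like cells of the same library. The dendritic-like and B-like values of BP replicate 1 lay below the 60.2 of its tumour-like cells. Each value is 1 pooled library, and no test was made.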
